A study of Mus musculus with 6 samples.

Results

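The genes described here are 10 markers of macrophages and their complement product C1q, namely Csf1r, Cd68, Cd14, Mrc1, Lyz2, C1qa, C1qb, C1qc, Tyrobp and Fcer1g, out of 19938 genes that could be followed on the arrays. They were chosen by name as textbook markers, with earlier results of these data known. Each was represented by the only probe set that carried its symbol alone. They were measured in whole dissected prostates of mice aged 4 weeks. The 3 AR3 transgenic mice carried an AR3 transgene, the 3 wild-type mice were littermates, and the total RNA of each mouse went on its own array. AR3 is a splice variant of the androgen receptor that lacks the ligand-binding domain. The labels do not state which promoter drives the transgene, how many founder lines were used or which lobes were dissected. The series compared the genotypes to find genes that differ in expression with the transgene.

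Macrophages live in the stroma of the prostate, where they clear dying cells and debris, and their survival depends on the kinase receptor Csf1r. They are the main source of C1q, the recognition molecule that starts the classical complement pathway and tags material for uptake. C1q is assembled from A, B and C chains, the products of C1qa, C1qb and C1qc, and all of these chains are needed for the complex. In whole tissue, fewer cells of a type and less RNA per cell cannot be told apart.

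The C1q genes are neighbours on mouse chromosome 4, where C1qc lies between C1qb and C1qa in the RefSeq table of assembly GRCm38.p6. PU.1 (Spi1) is an ETS-family transcription factor that macrophages need, and its sites hold a core of the letters GGAA. RefSeq promoter sequences of GRCm38.p6 were matched for 6 of the 10 markers, and the 250 bases before the start of the gene are printed for 3 of them. C1qb and Lyz2 are shown because their differences between the genotypes were the largest of the 10, and C1qc because it is the neighbour of C1qb whose values hardly differed. Capitals mark the ETS-type words GAGGAA and AGGAAGT, searched on both strands; where they overlap the capitals run together.
C1qb, chr4:136886201-136886450, minus strand: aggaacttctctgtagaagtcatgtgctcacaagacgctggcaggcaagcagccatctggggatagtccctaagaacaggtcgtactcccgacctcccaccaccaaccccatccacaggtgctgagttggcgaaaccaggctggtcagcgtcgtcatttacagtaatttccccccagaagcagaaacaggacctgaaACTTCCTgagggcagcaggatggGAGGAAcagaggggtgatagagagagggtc
C1qc, chr4:136892915-136893164, minus strand: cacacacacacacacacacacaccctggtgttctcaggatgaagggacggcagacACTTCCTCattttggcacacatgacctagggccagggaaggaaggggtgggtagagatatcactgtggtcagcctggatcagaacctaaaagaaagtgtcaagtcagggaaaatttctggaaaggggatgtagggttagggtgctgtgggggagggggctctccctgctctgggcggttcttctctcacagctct
Lyz2, chr10:117282273-117282522, minus strand: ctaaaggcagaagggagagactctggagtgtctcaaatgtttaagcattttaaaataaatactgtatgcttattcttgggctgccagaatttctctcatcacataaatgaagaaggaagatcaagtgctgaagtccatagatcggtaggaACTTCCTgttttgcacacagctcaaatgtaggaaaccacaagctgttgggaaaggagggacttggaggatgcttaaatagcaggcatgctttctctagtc
C1qb held AGGAAGT on the strand opposite to the gene, with its first printed base 53 bases before the start of the gene, and GAGGAA on the strand of the gene at 30 bases. C1qc held both words on the opposite strand in 1 overlapping run, from 195 bases. Lyz2 held AGGAAGT alone, on the opposite strand from 100 bases. Of the matched markers not printed, Mrc1, whose log2 change was 0.10, held GAGGAA 3 times and AGGAAGT 1 time. Cd68 held GAGGAA alone, 1 time, and Fcer1g held neither word. Of 32851 RefSeq promoter windows of the same length, 23.3% held GAGGAA, 7.69% held AGGAAGT and 3.67% held both. These matches describe letters and are not measured binding sites.

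With all 6 arrays, none of the 10 markers passed an adjusted p of 0.05 (limma, Benjamini-Hochberg over 28944 probe sets), where 1.64% of all genes did. C1qb and Lyz2 had the largest differences, with log2 changes (transgenic minus wild-type, on log2(intensity + 16)) of 0.73 and 0.77, and with estimates of 0.44, 0.34 and 0.33 C1qa, Csf1r and Cd68 came next. Tyrobp, Mrc1, C1qc, Cd14 and Fcer1g differed by 0.13 or less in either direction. The estimate was positive for 9 of the 10 markers, against 53.9% of all genes, and the median log2 change was 0.23, against 0.01 over all genes. An unadjusted p under 0.05 was reached by 3 of the 10 (C1qa, C1qb and Csf1r), against 12.2% of genes. As the markers were chosen with earlier results of these data known, these shares are description and were not tested. The genotypes did not overlap in C1qb, higher in transgenic prostates, or in Fcer1g, lower in them; such separation was seen in 19.1% of genes. The 95% interval reached a log2 change of 1 or more for 2 markers, C1qb and Lyz2, and a change of that size lay outside the intervals of the other 8 markers. Among these, Cd14 and Fcer1g lay below the background scale described below on all 6 arrays, Cd68 on 4 and Tyrobp on 3. Intervals of signal near background cannot exclude a change of that size in the transcript.

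**Figure D1:**
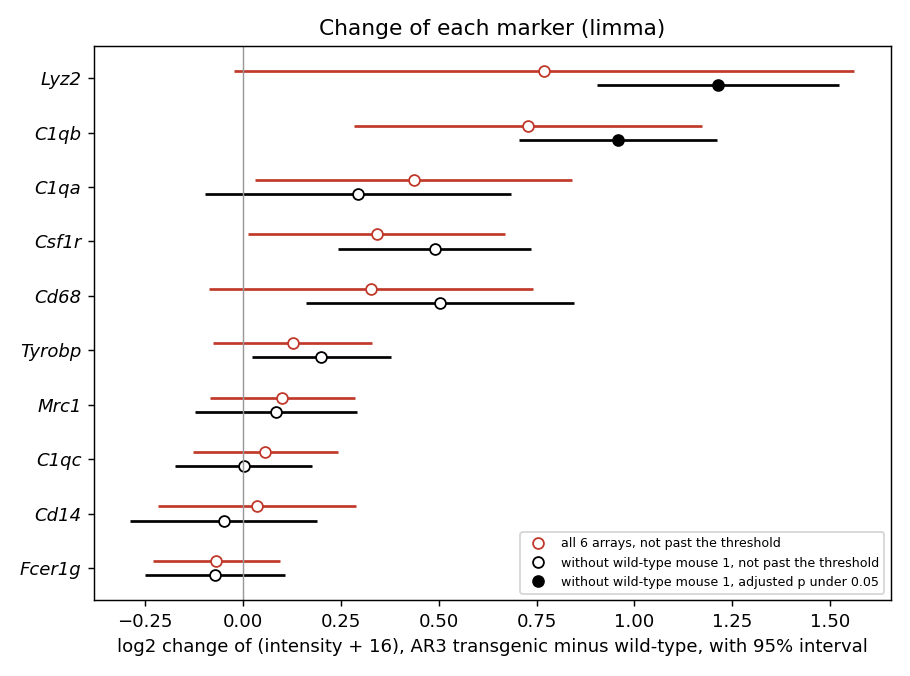
Log2 change of each marker, AR3 transgenic minus wild-type, on log2(intensity + 16) from limma, with 95% intervals; red, all 6 arrays; black, without wild-type mouse 1; filled points have an adjusted p under 0.05. With all arrays no point is filled, and without wild-type mouse 1 Lyz2 (1.21) and C1qb (0.96) are.

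The array of wild-type mouse 1 stood apart in several of the markers, and the results that rest on it are given with and without it. It held the highest wild-type value in 5 of the 10 (Csf1r, Cd68, Lyz2, C1qb and Tyrobp), against 25.2% of all genes. In 4 of these, all but C1qb, it was the sole wild-type array within or above the transgenic range. In 3 other markers, C1qa, C1qc and Cd14, it was instead the lowest array of all 6. This array also had the lowest median intensity, 94.5 against 104 to 111 on the others. How many of all genes were lowest on it was not counted. Without it, 2 of the 10 markers passed the threshold, Lyz2 and C1qb, both higher in transgenic prostates, where 1.97% of all genes were called. No other array had this effect: without any of the other 5 in turn, 0 of the 10 were called. The same markers were the 2 called with array weights, where 4.24% of genes were called, and when wild-type mouse 1 and transgenic mouse 3 were left out together, where 0.893% were. These settings are not independent of each other. The last also lacks wild-type mouse 1, and array weights moved the estimates the same way (Lyz2 1.09, C1qb 0.87). Wild-type mouse 1 was singled out through these same values, so the calls without it lend no separate support.

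Secretions and stroma also differed between mice of the same genotype. The summed intensity of 6 seminal vesicle secretory genes was 2611, 1546 and 8883 in transgenic mice 1, 2 and 3, against 4734, 639 and 785 in wild-type mice 1, 2 and 3. Within that list Svs3a ran differently and was called lower (-1.43, adjusted p 0.019, limma), at 136, 203 and 155 in the transgenic mice, against 341, 477 and 609.8 in the wild-type mice. Its call was lost without transgenic mouse 1, transgenic mouse 3 or wild-type mouse 2, at up to 0.11. Without Svs3a the sum was 2475, 1343 and 8729 in the transgenic mice, against 4393, 161 and 175 in the wild-type mice. Pate4 made up most of it in transgenic mouse 2. Pate4 had 1782, 1203 and 3026.5 in the transgenic mice, against 942, 25.25 and 36.7 in the wild-type mice. Its groups did not overlap, but it was not called (3.88, adjusted p 0.20, limma). The summed intensity of 10 fibroblast genes was 5655, 6041 and 8124 in the transgenic mice, against 6045, 4856 and 4241 in the wild-type mice. In both sums wild-type mouse 1 was the highest wild-type array and transgenic mouse 3 the highest transgenic array, as they were in Lyz2, C1qb, Csf1r and Cd68. Both lists were added, and Svs3a and Pate4 named, after the data had been seen, and the part of these lists in the marker values was not tested. No detection calls were used, so the 95th percentile of 1035 olfactory receptor probe sets served as a scale of background, from 66.9 on wild-type mouse 1 to 91.9 on wild-type mouse 3. Against the scale of their own array, Cd14 and Fcer1g lay below it on all 6 arrays, 5 markers on some of them and 3 (Mrc1, C1qa and C1qc) on none.

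**Figure D2:**
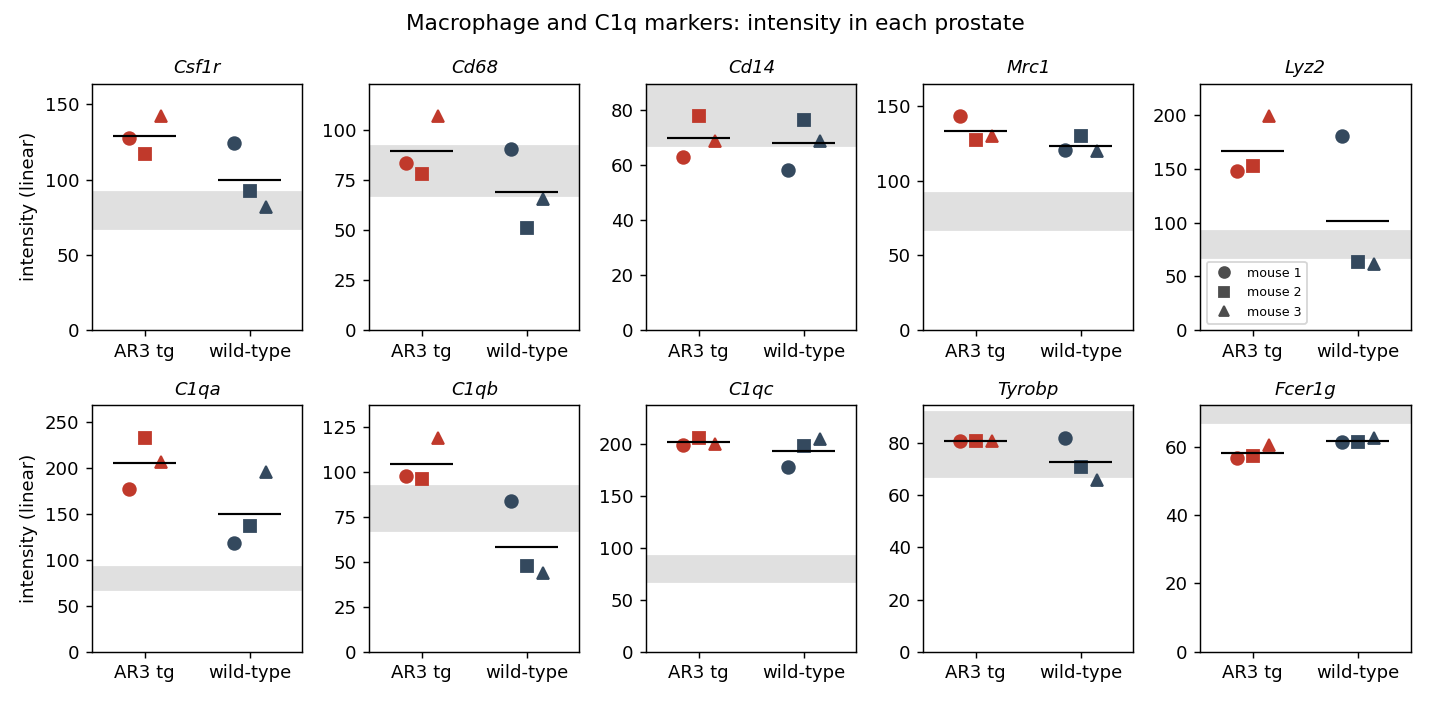
Deposited intensity (linear scale) of the 10 markers in each prostate, AR3 transgenic left and wild-type right; the symbol gives the mouse number, the line is the group mean and the grey band is the range of the background scale over the arrays, 66.9 to 91.9. In Lyz2 wild-type mouse 1 (181) sits among the transgenic mice, and in C1qb the genotypes do not overlap.

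Among the C1q chains the B chain differed most. C1qb intensity was 97.9, 95.7 and 119 in transgenic mice 1, 2 and 3, against 83.4, 47.6 and 43.8 in wild-type mice 1, 2 and 3. All transgenic values lay above all wild-type values, and wild-type mouse 1 lay nearest to them. C1qb averaged 104 ± 12.9 in transgenic and 58.3 ± 21.9 in wild-type prostates (SD, n = 3 each), a log2 change of 0.73 ± 0.19 (SE) with a 95% interval of 0.28 to 1.17 and an adjusted p of 0.17 (limma). Without wild-type mouse 1 the change was 0.96, with an interval of 0.71 to 1.21 and an adjusted p of 0.0074. With wild-type mouse 1 and transgenic mouse 3 both left out it was 0.87 (adjusted p 0.022), and with array weights it was also 0.87 (adjusted p 0.011). It was smallest among the single arrays left out without wild-type mouse 3, at 0.59 (adjusted p 0.24). Wild-type mice 2 and 3 lay below the background scale of their own arrays, so the log2 change depends on the added constant: with all arrays it was 0.88 with a constant of 1 and 0.47 with 64.

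C1qa, which encodes the A chain, had 178, 234 and 207 in transgenic mice 1, 2 and 3, against 118, 137 and 196 in wild-type mice 1, 2 and 3. The genotypes overlapped through wild-type mouse 3 alone, whose value exceeded that of transgenic mouse 1. C1qa averaged 206 ± 28.0 in transgenic and 150 ± 40.3 in wild-type prostates (SD, n = 3 each), and the log2 change was 0.44 ± 0.17 (adjusted p 0.37, limma). Here leaving out wild-type mouse 1, the lowest array, made the estimate smaller (0.29, adjusted p 0.41), and leaving out wild-type mouse 3 made it larger (0.62, adjusted p 0.088).

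The C chain gene C1qc was nearly level, at 199, 206 and 199 in transgenic mice 1, 2 and 3, against 177, 197 and 205 in wild-type mice 1, 2 and 3. Its groups overlapped, its log2 change was 0.06 ± 0.08 (adjusted p 0.83, limma) and its 95% interval, from -0.13 to 0.24, held no change as large as the estimates for C1qb or C1qa. The difference between the chains was itself compared within arrays, as the log2 ratio of C1qb to C1qc. That ratio averaged -0.86 in transgenic and -1.53 in wild-type prostates, a difference of 0.67 ± 0.30 (SE) with an exact permutation p of 0.2 (two-sided, n = 3 each). The ratio of C1qa to C1qc differed by 0.38 ± 0.17 (exact permutation p 0.2) and that of C1qb to C1qa by 0.29 ± 0.43 (exact permutation p 0.6). Adjusted over the 3 pairs, the exact permutation p-values were 0.3, 0.3 and 0.6, and 3 against 3 arrays allow no raw p below 0.1, so that this test could not have passed 0.05 and leaves unequal change of the chains undecided.

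Lyz2 encodes the M-type lysozyme, a bacteriolytic enzyme of macrophages, monocytes and neutrophils. Its intensity was 148, 152 and 200 in transgenic mice 1, 2 and 3, against 181, 63.0 and 61.4 in wild-type mice 1, 2 and 3. Wild-type mouse 1 lay above transgenic mice 1 and 2, while wild-type mice 2 and 3 lay far below every transgenic array. The wild-type spread was accordingly wide, with means of 167 ± 28.5 in transgenic and 102 ± 68.5 in wild-type prostates (SD, n = 3 each). The log2 change was 0.77 ± 0.34 with a 95% interval of -0.02 to 1.56 and an adjusted p of 0.42 (limma). Without wild-type mouse 1 it was 1.21 (interval 0.90 to 1.52, adjusted p 0.0063), and with transgenic mouse 3 also left out 1.09 (adjusted p 0.0080). With array weights Lyz2 passed at an adjusted p of 0.040. Without wild-type mouse 2 or 3 the change was smaller, at 0.56 and 0.54 (adjusted p 0.67 and 0.55). Wild-type mice 2 and 3, the sole wild-type arrays left without mouse 1, both lay below the background scale of their own arrays, so the estimates depend on the added constant: with all arrays the change was 0.89 with a constant of 1 and 0.54 with 64.

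Lyz1, the P-type lysozyme gene of Paneth cells, is the neighbour and near-identical paralogue of Lyz2, so that shared hybridisation could not be separated here. Lyz1 had 85.9, 90.7 and 150 in transgenic mice 1, 2 and 3, against 117, 26.6 and 35.0 in wild-type mice 1, 2 and 3. As in Lyz2, wild-type mouse 1 lay above transgenic mice 1 and 2 and the other wild-type mice far below, and the log2 change was 0.88 ± 0.41 (adjusted p 0.45, limma).

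Cd68, the macrosialin of macrophage lysosomes and endosomes, had 83.3, 78.0 and 107 in transgenic mice 1, 2 and 3, against 90.7, 51.0 and 65.5 in wild-type mice 1, 2 and 3. Wild-type mouse 1 lay inside the transgenic range and the other wild-type mice below it. The log2 change was 0.33 ± 0.18 (adjusted p 0.52, limma), and 0.50 without wild-type mouse 1 (adjusted p 0.17). Its estimates ran from 0.17, without wild-type mouse 2, to 0.55 with array weights, and none of the 15 alternatives called it.

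Of the surface receptors, Csf1r differed most. It had 128, 117 and 142 in transgenic mice 1, 2 and 3, against 124, 92.7 and 81.5 in wild-type mice 1, 2 and 3. Again wild-type mouse 1 lay among the transgenic mice and the other wild-type mice below them. The log2 change was 0.34 ± 0.14, with a 95% interval of 0.01 to 0.67 and an adjusted p of 0.39 (limma). It was 0.49 without wild-type mouse 1 (adjusted p 0.084) and 0.40 with array weights (adjusted p 0.071), but 0.23 without wild-type mouse 3 (adjusted p 0.50) and 0.28 without transgenic mouse 3 (adjusted p 0.76), and none of the 15 alternatives called it.

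Mrc1, the mannose receptor of tissue macrophages that lymphatic and other endothelium also carries, had 144, 127 and 130 in transgenic mice 1, 2 and 3, against 121, 130 and 120.0 in wild-type mice 1, 2 and 3. The groups overlapped, and the log2 change was 0.10 ± 0.08 with a 95% interval of -0.09 to 0.29 (adjusted p 0.68, limma). Cd14, the co-receptor for bacterial lipopolysaccharide, had 63.0, 77.9 and 68.6 in transgenic mice 1, 2 and 3, against 58.3, 76.5 and 68.8 in wild-type mice 1, 2 and 3. Its groups coincided at the background scale, with a log2 change of 0.04 ± 0.11 (adjusted p 0.93, limma) whose sign turned in 5 of 14 alternatives, median centring among them.

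Tyrobp (DAP12) and Fcer1g are small adaptors that pair with activating receptors and signal through tyrosine motifs to the kinase Syk; NK cells use both, and mast cells Fcer1g. Tyrobp had 80.7, 80.9 and 80.7 in transgenic mice 1, 2 and 3, against 82.1, 70.6 and 65.9 in wild-type mice 1, 2 and 3. The transgenic arrays and wild-type mouse 1 were all but equal, and the other wild-type mice lay lower. The log2 change was 0.13 ± 0.09 (adjusted p 0.62, limma), and 0.20 without wild-type mouse 1 (adjusted p 0.26). Fcer1g had 56.7, 57.2 and 60.6 in transgenic mice 1, 2 and 3, against 61.4, 61.2 and 62.7 in wild-type mice 1, 2 and 3. Although its groups did not overlap, all its values lay below the background scale of their arrays, and the log2 change of -0.07 ± 0.07 had an adjusted p of 0.75 (limma).

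**Figure D3:**
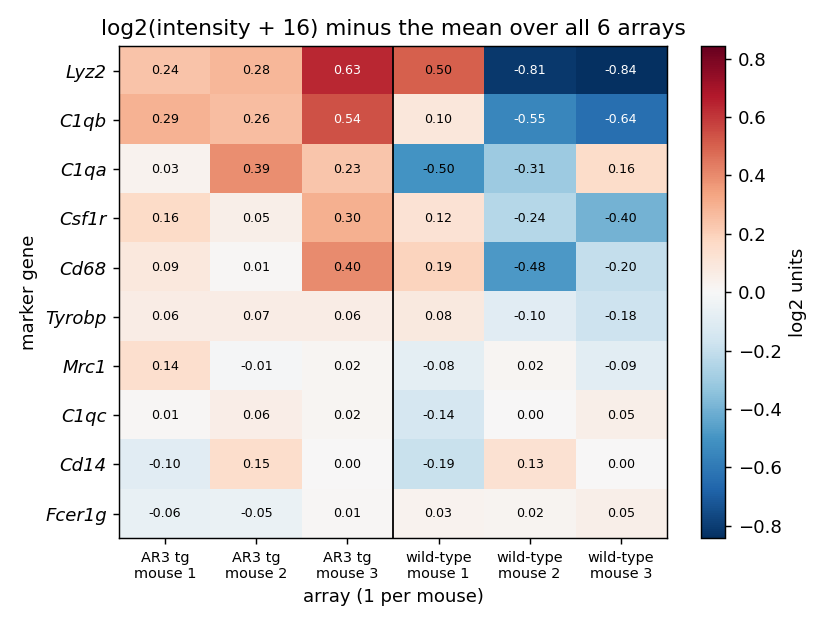
Log2(intensity + 16) of each marker minus its mean over all 6 arrays, AR3 transgenic mice left of the line and wild-type mice right of it; red is above and blue below the gene's mean. Lyz2 on wild-type mouse 1 (0.50) has the colour of the transgenic arrays, while C1qa on the same array (-0.50) is its lowest value.

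Averaged over the 10 markers, the deviation from each gene's own mean was 0.09, 0.12 and 0.22 in transgenic mice 1, 2 and 3, against 0.01, -0.23 and -0.21 in wild-type mice 1, 2 and 3, in log2 units. Among 12585 other genes with a mean above 81.2, the 10 whose deviations lay closest to this profile were Mpdu1, Hdac1, Hfe, Fbxw5, Anapc4, Glmp, Gna14, Lhpp, Nipsnap1 and Sp3. Their root mean square difference from it over 6 arrays was at most 0.044 log2 units. Their log2 changes ran from 0.22 to 0.35, the smallest adjusted p was 0.19 (limma), and none is on any of the gene lists used here. Mpdu1, the closest, is the neighbour of Cd68 on chromosome 11.

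Of 24 further genes of macrophage identity, 1 was called and higher in transgenic prostates, the lysosomal protease Ctss, and 23 did not pass; the list's median log2 change was 0.15. An unadjusted p under 0.05 was reached by 8 of the 24, 7 higher and 1 lower. Ctss had 282, 293 and 303 in transgenic mice 1, 2 and 3, against 196, 137 and 120 in wild-type mice 1, 2 and 3. Every transgenic value lay above every wild-type value, and wild-type mouse 1 was again the highest wild-type array. Its log2 change was 0.91 ± 0.16 (adjusted p 0.036, limma), and this call was lost without any single array other than wild-type mouse 1, at up to 0.18. It was also lost with an added constant of 1 (0.077), with quantile normalization (0.058) and with the mouse number as a block (0.10). Not called were the asparaginyl endopeptidase Lgmn (0.38, adjusted p 0.069), the perforin-like Mpeg1 (0.61, adjusted p 0.17) and the scavenger receptor Msr1 (-0.47, adjusted p 0.21), whose values lay below background on all arrays. Adgre1, which encodes F4/80 and was singled out afterwards as the defining mouse macrophage antigen, also lay below the scale of every array, at 46.3 to 56.6 in transgenic and 40.5 to 49.7 in wild-type prostates. In all, 11 of the 24 did so. Without wild-type mouse 1, where 1.97% of all genes were called, 3 of the 24 were. These were Ctss, Mpeg1 (0.77) and the NADPH oxidase subunit Cybb (0.53), all higher in transgenic prostates. In Mpeg1 and Cybb the remaining wild-type values, of mice 2 and 3, lay below the background scale of their own arrays.

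Of 16 genes linked to resident macrophages, 1 was called and lower, the carbonyl reductase Cbr2, and the list's median was 0.18. An unadjusted p under 0.05 was reached by 7 of the 16, 5 higher and 2 lower. Cbr2 had 1384, 1310 and 1100 in transgenic mice 1, 2 and 3, against 2773, 3335 and 3274 in wild-type mice 1, 2 and 3, with no overlap. Its log2 change of -1.30 ± 0.12 (adjusted p 0.0011, limma) was called in every alternative run. Cbr2 is also an epithelial gene, as in the airways. The apoptotic cell receptor Timd4 (0.32, adjusted p 0.14), the scavenger receptor Stab1 (0.30, adjusted p 0.29) and the apolipoprotein Apoe (0.25, adjusted p 0.31) did not pass. Of the 16, 9 lay below the background scale on all 6 arrays, Timd4 among them. Of 11 monocyte and dendritic cell genes none passed in limma (1 had an unadjusted p under 0.05, Plac8, at 0.36 with an adjusted p of 0.083), and the median was -0.01. Here 7 of the 11 lay below the scale on all 6 arrays.

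**Figure D4:**
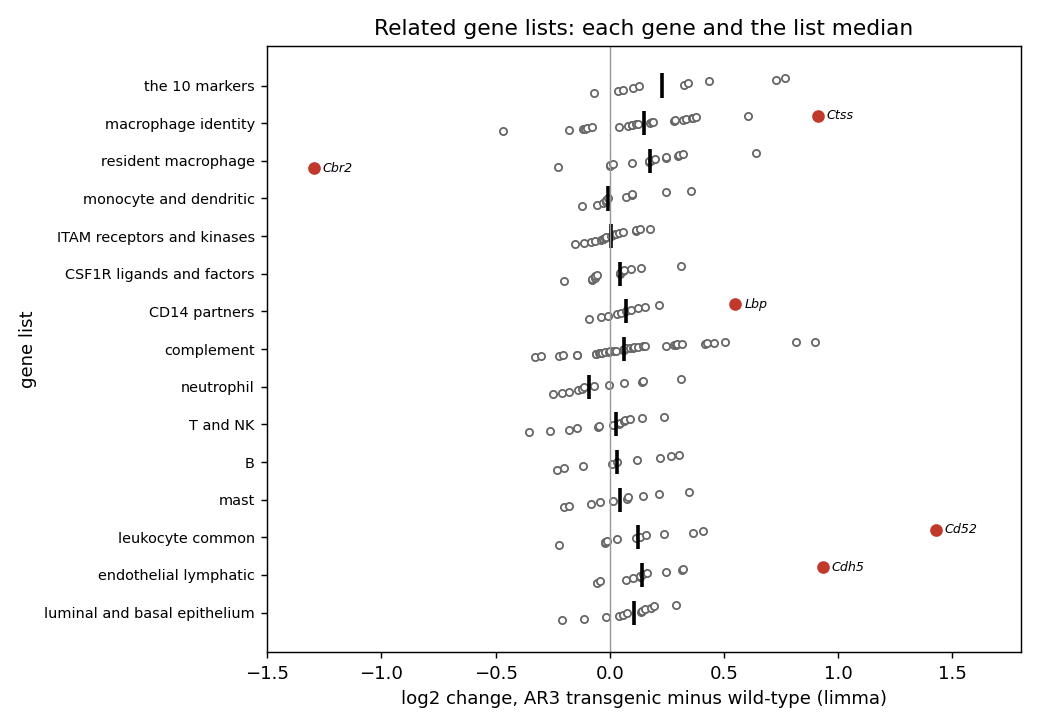
Log2 change, AR3 transgenic minus wild-type, of every measured gene of the 10 markers and the related lists (points), with the list median (bar); filled red points have an adjusted p under 0.05 in limma. Ctss, Lbp, Cd52 and Cdh5 lie to the right and Cbr2 to the left; the 10 markers hold no filled point.

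The signals that feed Csf1r, and the factors behind macrophage fate, did not pass in any of 13 measured genes (1 had an unadjusted p under 0.05, limma). The ligand Csf1 had a log2 change of 0.14 ± 0.07 (adjusted p 0.52), the regulator Cebpa of 0.31 ± 0.12 (adjusted p 0.37) and Mitf of -0.20 ± 0.11 (adjusted p 0.50). Of 19 receptors and kinases that signal through or beside Tyrobp and Fcer1g, 0 passed and 0 had an unadjusted p under 0.05, with a median of 0.01; the genes with the smallest p were Trem2, Fgr and Hcst, with log2 changes of 0.12, 0.12 and 0.13 (adjusted p 0.66, 0.67 and 0.68). Of these 19, 13 lay below the background scale on all 6 arrays, Fgr among them, so the list says little about this signalling. Of 11 partners of Cd14 in lipopolysaccharide sensing, Lbp, the lipopolysaccharide binding protein, rose and 10 did not pass. Lbp had 645, 699 and 648 in transgenic mice 1, 2 and 3, against 434, 475 and 437 in wild-type mice 1, 2 and 3, with no overlap and a log2 change of 0.55 ± 0.08 (adjusted p 0.014, limma). That call was lost without any 1 transgenic array, at up to 0.093, with transgenic mouse 3 and wild-type mouse 1 both left out, at 0.13, and with the mouse number as a block, at 0.068.

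None of 38 other complement genes passed in limma, although 8 had an unadjusted p under 0.05, 6 higher and 2 lower in transgenic prostates, and the median was 0.06. Of the 38, 18 lay below the background scale on all 6 arrays. The smallest p-values belonged to C1ra, the protease that C1q activates (0.43 ± 0.09, adjusted p 0.072), the membrane attack inhibitor Cd59a (0.50 ± 0.11, adjusted p 0.082) and the ficolin Fcna (0.45 ± 0.12, adjusted p 0.19). Without wild-type mouse 1, Cd59a (0.60), the C1 inhibitor Serping1 (1.29) and the terminal component C7 (1.34) were called, each higher in transgenic prostates. In that setting 1.97% of all genes were called. The remaining wild-type values of C7, of mice 2 and 3, lay below the background scale of their own arrays.

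Other cells that carry some of the markers moved as follows. Of 12 genes common to leukocytes, Cd52 alone was called, at 1205, 926 and 1148 in transgenic mice 1, 2 and 3, against 590, 338 and 304 in wild-type mice 1, 2 and 3. Its groups did not overlap and its log2 change was 1.43 ± 0.23 (adjusted p 0.029, limma), a call lost without any single array other than wild-type mouse 1, at up to 0.14, and with an added constant of 1 (0.067) or an intensity trend with robust variances (0.061). Cd52 is also a major product of the epithelium of the male reproductive tract. The leukocyte list's median was 0.12, and 3 of the 12 had an unadjusted p under 0.05 (limma), all higher. Of 12 endothelial and lymphatic genes, the cadherin Cdh5 was called higher (0.93 ± 0.12, adjusted p 0.0096, limma). Cdh5 lost that call without transgenic mouse 2, transgenic mouse 3 or wild-type mouse 2, at up to 0.065, and with the mouse number as a block (0.057). That list's median was 0.14, and 3 of the 12 had an unadjusted p under 0.05 (limma), all higher. Neutrophil, T and NK, B and mast cell lists, of 12, 14, 9 and 10 measured genes, held no call, with 2, 0, 2 and 1 unadjusted p under 0.05 in limma and medians of -0.09, 0.03, 0.03 and 0.04. Of their genes 8, 8, 5 and 7 lay below the scale on all 6 arrays, and no value was at 0.

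In sums of intensity, the 10 markers came to 1178, 1226 and 1315 in transgenic mice 1, 2 and 3, against 1097, 928 and 970 in wild-type mice 1, 2 and 3. The leukocyte list came to between 3043 and 3183 in transgenic prostates, against 2341 to 2565 in wild-type prostates, a gap that rested on Cd52: the other 11 genes came to 1978 to 2117 against 1975 to 2063 and overlapped. The macrophage identity list came to 2965 to 3148 in transgenic prostates, against 2549 to 2664 in wild-type prostates. The resident macrophage list was separated the other way, at 5238 to 5409 in transgenic prostates, against 6396 to 6981 in wild-type prostates, through Cbr2; its other 15 genes came to 3855 to 4289 against 3189 to 3647. Higher sums without overlap were also seen outside the macrophage lists. The endothelial and lymphatic sum was 1535 to 1642 in transgenic prostates, against 1243 to 1362 in wild-type prostates. The monocyte and dendritic sum was 1764 to 1798 against 1491 to 1563, and that of the Cd14 partners 2037 to 2170 against 1816 to 1841. The monocyte and dendritic gap rested on Plac8, at 1053 to 1088 in transgenic and 785 to 874 in wild-type prostates. That of the Cd14 partners rested on Lbp, at 645 to 699 against 434 to 475. Without Plac8 and Lbp the sums of their lists overlapped. Sums of the complement list, the Csf1r signals and factors and the receptors and kinases overlapped. The neutrophil sum was 518 to 539 in transgenic prostates, against 482 to 598 in wild-type prostates, and the T and NK sum 819 to 901 against 763 to 992, so both overlapped. B cell sums (591 to 659 against 558 to 672) and mast cell sums (737 to 834 against 582 to 816) overlapped too. Epithelial sums overlapped as well, at 30102 to 30403 in transgenic and 29372 to 30145 in wild-type prostates, with the prostate marker Pbsn among the brightest at 7927 to 8325 in transgenic and 9066 to 9758 in wild-type prostates. The part of these cell types in the marker values was not tested.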

How the data were processed

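Total RNA of each prostate was labelled with a whole-transcript kit for Affymetrix arrays, per the labels' protocols. The deposited table holds 1 intensity per probe set and array on a linear scale, as read from its values; the labels and the file do not say how they were summarised, corrected for background or normalized, or with which software. The values were taken as normalized between arrays. Of 35512 probe sets, 6568 with control identifiers were left out. Symbols came from the platform annotation (21789 probe sets with 1 symbol, 1621 with several, 5534 with none here). Among probe sets with 1 symbol, that with the highest mean stood for a gene, and each of the 10 markers had 1. Probe sets with several symbols were not searched for the markers. Median intensity per array lay between 94.5 and 111.

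Log2(intensity + 16) was fitted by limma 3.58.1 (lmFit, then eBayes; R 4.3.3) to compare the 3 transgenic with the 3 wild-type arrays, two-sided, with Benjamini-Hochberg adjustment over 28944 probe sets and a threshold of 0.05; the fit was tested on simulated data. Intervals are at 95% and unadjusted. The labels name each sample as a separate mouse, and the number of arrays limits the precision. No array batch was used here. The markers and gene lists were chosen with earlier results of these data known, so no test of a list was made. The named list genes were those called and up to 3 others with the smallest p; genes outside this rule, among them Adgre1, Cybb, Serping1, C7, Lyz1 and the seminal vesicle and fibroblast genes, were chosen after their values were seen. Alternatives were other added constants, median centring, quantile normalization, a filter that dropped the dimmest 40% of probe sets, array weights, eBayes with a trend in intensity and robust variances, the mouse number as a block, and fits without each array. The labels give both genotypes mouse numbers 1 to 3 and state no pairing.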

Additional observations from a re-analysis of the deposited data

How the results depend on the processing

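With all arrays 0 of the 10 markers were called, and 0 under the added constants of 1 and 64, quantile normalization, median centring, the filter on dim probe sets, the intensity trend and the block. The count was 2 (Lyz2 and C1qb) with array weights and, in an alternative chosen after seeing the data, 2 without wild-type mouse 1 and transgenic mouse 3 together. Leaving out each array gave 0 to 2, the 2 being without wild-type mouse 1; the cause was not tested. The median log2 change of the markers (0.23) was 0.33 without the dimmest 40%, where Cd14 and Fcer1g drop out, and 0.15 to 0.25 leaving out each array. Cd14 turned sign with median centring (-0.0028), array weights (-0.058) and wild-type mouse 1 and transgenic mouse 3 left out (-0.040), and ran from -0.049 to 0.11 leaving out each array; none of these was called. Of the 205 related list genes, 5 were called with all arrays, 3 with an added constant of 1, 9 with 64, 9 without the dimmest 40% (of 104 left), 10 with the intensity trend, 20 with array weights, 2 with the replicate block and 1 to 11 leaving out each array. Same-numbered mice did not deviate together over all probe sets (r of deviations -0.04, 0.05 and -0.16). Such correlations of 3 arrays per genotype cannot exclude a pairing that the labels leave unstated. Under the replicate block 0 markers were called. Averaging several probe sets of a gene was not run, as each marker had 1 with its symbol alone. Values near the background scale limit Cd14, Fcer1g, Tyrobp, Cd68, wild-type C1qb and wild-type Lyz2.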
